A study of Mus musculus with 2 samples.

Results

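MicroRNA genes are described here across the 2 Affymetrix arrays of the study. They were taken as all genes whose symbol in the platform annotation starts with Mir and a digit, or with Mirlet7, among probe sets annotated to 1 symbol, and host genes with symbols ending in hg were left out. This gave 296 of the 19938 genes so annotated, read by 298 probe sets, since Mir713 has 3 and every other member has 1. The Tg array was hybridised with RNA from cortical thymic epithelial cells (cTECs), the epithelium of the outer thymus, taken from Aire transgenic NOD mice. The non-Tg array carried the same cell type from NOD mice of control genotype. The labels name 7 Tg and 5 non-Tg as sources, read here as numbers of pooled animals, and both groups were at day 7. The Tg mice are a semi-knockin strain in which the promoter of β5t (Psmb11), a thymoproteasome subunit of the cortex, drives Aire. Both arrays share the diabetes-prone NOD background, and the comparison sets ectopic Aire, a transcriptional regulator normally active in medullary epithelium, against none added. Each group had 1 array, so no value has a replicate error and no difference has a test.

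A microRNA is cut out of a longer primary transcript. The nuclear enzyme Drosha with its partner Dgcr8 releases a hairpin, Xpo5 carries it to the cytoplasm, and Dicer1 cuts it to a short duplex, of which usually 1 strand is loaded into an Argonaute protein and guides it to messenger RNAs that pair with its seed. Many microRNA genes lie within other genes or share 1 primary transcript as a cluster. In the mouse thymus, loss of Dicer1 from the epithelium disrupts the organ, miR-29a dampens the response of the epithelium to interferon, and miR-181 tunes the receptor signalling of thymocytes. The probe sets were annotated to the hairpin genes. The data do not show whether a signal came from the hairpin, the primary transcript, a host transcript or another RNA, and a level on these arrays is not a level of the mature microRNA. RNA was prepared with a column kit of a type that retains short RNAs poorly.

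The sequences that the results turn on are shown first, from RefSeq (GRCm38.p6), where 260 of the 298 probe sets matched a hairpin by gene ID. In the mature microRNAs below, written 5′ to 3′, the capitals mark the seed, bases 2 to 8. The first pair is shown because Mir103-2 differed most between the arrays. Its mature product is identical to that of Mir103-1 and has the same seed as that of Mir107. The miR-181 sequences share a seed while their probe sets had very different levels. The last 3 pairs are microRNAs of like seed of which at least 1 exceeded the median of an array.
miR-103-3p (Mir103-1 and Mir103-2): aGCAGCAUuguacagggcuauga
miR-107-3p: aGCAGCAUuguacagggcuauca
miR-181a-5p (Mir181a-1 and Mir181a-2): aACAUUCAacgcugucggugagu
miR-181b-5p (Mir181b-1 and Mir181b-2): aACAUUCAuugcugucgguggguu
miR-181d-5p: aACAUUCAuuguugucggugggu
miR-212-3p: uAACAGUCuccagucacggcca
miR-132-3p: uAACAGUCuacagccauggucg
miR-34b-5p: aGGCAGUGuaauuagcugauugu
miR-449a-5p: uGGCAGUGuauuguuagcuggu
let-7e-5p: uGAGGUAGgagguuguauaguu
let-7i-5p: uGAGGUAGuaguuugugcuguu

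The hairpins below are the stretches that the probe sets are annotated to, with the mature arms in capitals. Mir103-2 lies at chr2:131288052-131288137 on the plus strand, within the span of the pantothenate kinase gene Pank2 on the same strand. Mir103-1 lies at chr11:35782396-35782481 on the plus strand, within Pank3. The next 2 are the hairpins with the highest and the lowest share of G and C among the members: Mir212 at chr11:75173388-75173478 (plus strand) with 69.2%, and Mir190a at chr9:67236660-67236726 (minus strand) with 28.4%. The final 3 depart from the relation of level to base composition described below: Mir181d at chr8:84178716-84178787 (minus strand), Mir335 at chr6:30741299-30741396 (plus strand) and Mir24-2 at chr8:84208815-84208921 (plus strand).
Mir103-2: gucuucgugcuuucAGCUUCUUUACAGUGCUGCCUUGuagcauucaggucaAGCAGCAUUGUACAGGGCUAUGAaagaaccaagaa
Mir103-1: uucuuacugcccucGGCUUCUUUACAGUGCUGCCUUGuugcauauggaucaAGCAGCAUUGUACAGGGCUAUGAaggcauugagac
Mir212: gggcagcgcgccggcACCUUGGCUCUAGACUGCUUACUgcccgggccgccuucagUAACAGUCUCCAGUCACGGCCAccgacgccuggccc
Mir190a: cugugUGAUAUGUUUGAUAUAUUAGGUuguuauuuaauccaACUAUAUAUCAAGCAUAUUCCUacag
Mir181d: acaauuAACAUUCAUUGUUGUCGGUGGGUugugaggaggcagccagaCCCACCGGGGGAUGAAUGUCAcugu
Mir335: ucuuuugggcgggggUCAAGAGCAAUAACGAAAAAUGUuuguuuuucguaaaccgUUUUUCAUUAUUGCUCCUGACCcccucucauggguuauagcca
Mir24-2: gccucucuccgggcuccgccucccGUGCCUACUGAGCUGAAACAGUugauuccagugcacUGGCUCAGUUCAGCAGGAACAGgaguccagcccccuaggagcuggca

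Most microRNA probe sets were dim on both arrays. Levels are log2 values as deposited. Those of the members had a median of 4.68 on the Tg array and 4.71 on the non-Tg array, against medians of 5.43 (Tg) and 5.45 (non-Tg) over all 28856 probe sets. The lowest value of any probe set was 4.22 on each array. On the Tg array 58 member probe sets (19.5%) exceeded the array median, against 54.3% of the 21789 probe sets with 1 symbol. On the non-Tg array 63 (21.1%) did, again against 54.3%. Both medians were exceeded by 54 members, against 51.1% of single-symbol probe sets, and at least 1 by 67 (22.5%), against 57.5%. The other 231 exceeded neither, and 163 were on both arrays under a log2 level of 4.80, the 25th percentile over both arrays, which served as a floor. In that range a difference in the RNA was not detectable. Closest to the line on the Tg array were Mir191 at 5.44 just above it and Mir551b at 5.43 just under it. On the non-Tg array these were Mir122 at 5.46 and Mir370 at 5.43. The 3 probe sets of Mir713 ranged from 4.51 to 4.75 in Tg and from 4.63 to 4.80 in non-Tg, all below the floor.

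Over all probe sets the arrays correlated with a Pearson r of 0.986. Aire was at 7.33 on the Tg array and 6.06 on the non-Tg array, a ratio of 1.28 in the direction of the genotype labels. Psmb11 was at 10.52 on the Tg array and 10.15 on the non-Tg array. All 8 listed cTEC markers exceeded the median on both arrays, led by the chemokine gene Ccl25 at 12.64 in Tg and 12.58 in non-Tg. Markers of thymocytes did so in 7 of 8 measured genes, so both preparations held thymocyte RNA beside that of cTECs. The same held for 5 of 6 measured markers of medullary epithelium and 3 of 3 of endothelium. For fibroblasts it was 2 of 3, and for B cells and erythroid cells 1 of 2 each. Over all single-symbol probe sets the share was 51.1%. Of the 8 thymocyte genes 6 had differences below 0, with a median of -0.14. They ran from -0.49 for Cd3d, a subunit of the T cell receptor complex, at 8.58 in Tg and 9.07 in non-Tg, to 0.18 for the co-receptor gene Cd4. Of 6 macrophage and dendritic markers 2 exceeded a median, Tyrobp at 6.08 in Tg and 6.66 in non-Tg and C1qa at 5.40 in Tg and 5.71 in non-Tg. The part of these cells in the differences of the microRNA members, whose median also lay below 0, was not tested. In such bulk RNA, fewer cells of a type and less RNA per cell cannot be told apart.

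**Figure D1:**
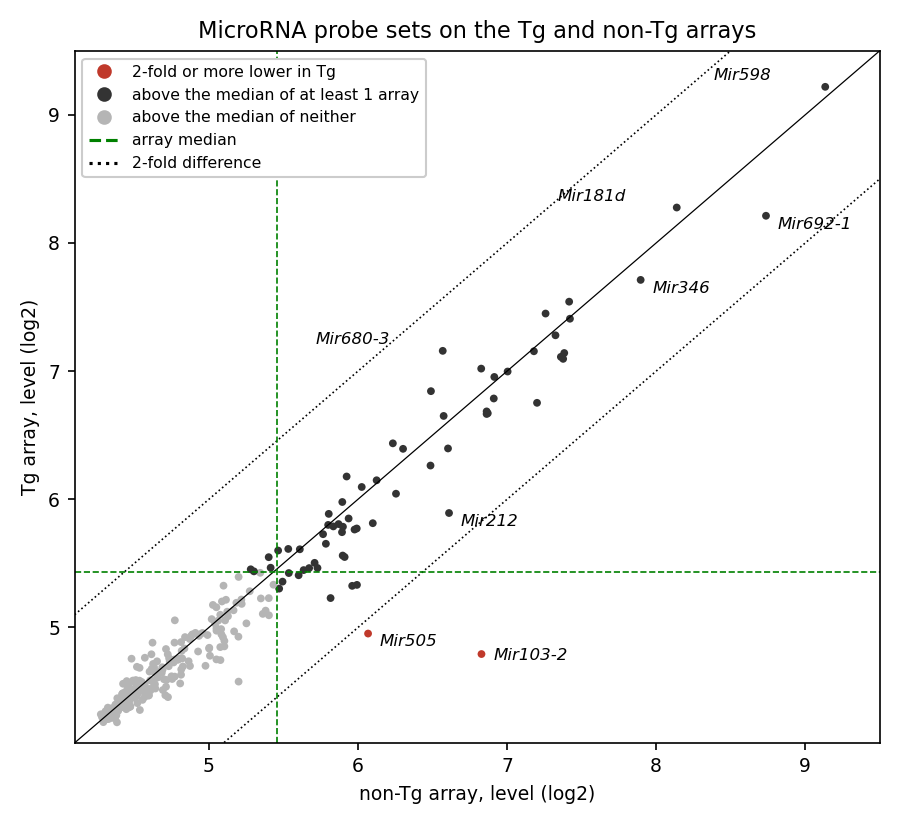
Levels (log2) of the 298 microRNA probe sets, with the Tg array on the vertical and the non-Tg array on the horizontal axis; each point is 1 probe set and each array is 1 sample. Most points lie below both array medians (green), and Mir103-2 and Mir505 alone among points above a median lie beyond the 2-fold line, both lower in Tg.

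Of the 67 members that exceeded a median, 2 were lower in Tg by at least 2-fold and 0 were higher by that much. Over all 12537 single-symbol probe sets above a median, the shares at that fold were 0.479% lower and 0.885% higher, 1.36% in all. Ratios here are Tg minus non-Tg on the log2 scale, with values under the floor raised to it. The SD of the ratios over the 12537 probe sets was 0.337. Among the 67 members it was 0.356, with 55 ratios within 0.3 of 0. Both lower members exceeded the median of the non-Tg array alone. Of the 54 members above both medians 0 were 2-fold apart, beside 1.04% of the 11132 single-symbol probe sets above both (0.665% higher and 0.377% lower in Tg).

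Mir103-2 was at 4.79 on the Tg array and 6.83 on the non-Tg array. It was thus above the median in non-Tg and under the floor in Tg, so that the fold is a bound: it was at least 4.09-fold lower in Tg. The microRNAs miR-103 and miR-107 are known in the mouse as regulators of insulin sensitivity. Mir103-1, which yields the same mature sequence, was under the floor on both arrays, at 4.51 in Tg and 4.56 in non-Tg. Mir107 was at 4.84 in Tg and 5.00 in non-Tg, above the floor and below the median on both arrays. The 3 genes lie within 3 pantothenate kinase genes, which make the first step of coenzyme A synthesis. These hosts differed little: Pank2, the host of Mir103-2, was at 7.88 in Tg and 7.96 in non-Tg. Pank3, the host of Mir103-1, was at 8.35 in Tg and 8.46 in non-Tg, and Pank1, that of Mir107, at 6.08 in Tg and 6.03 in non-Tg. The ratios of the 3 hosts and the other 2 loci of the family all lay between -0.16 and 0.05.

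Mir505 was the other member beyond 2-fold, with 4.95 in Tg against 6.07 in non-Tg, 2.17-fold lower at a ratio of -1.12. It, too, exceeded the median in non-Tg and not in Tg. With a floor at the 50th percentile its ratio was -0.63 and no longer 2-fold.

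Smaller differences followed at 1.5-fold, where 6 members were lower in Tg and 1 was higher. Over all single-symbol probe sets above a median, 3.21% were lower and 4.91% higher by that much, 8.13% in all. Of the 6 lower members 5 exceeded the median of the non-Tg array alone, and so entered the count through the array on which they were high. They were Mir103-2, Mir505, Mir449a, Mir540 and Mir431. Of the 54 members above both medians, 1 was lower (Mir212) and 1 was higher (Mir680-3), beside 2.67% lower and 4.42% higher (7.09% in all) of the single-symbol probe sets above both. Mir212, whose microRNA is known from activity-dependent regulation in neurons, was at 5.89 in Tg and 6.61 in non-Tg (ratio -0.72). Mir449a, of the miR-34 and miR-449 family that acts in multiciliated epithelium, was at 5.33 in Tg and 5.99 in non-Tg (-0.66). Mir540 was at 5.32 in Tg and 5.96 in non-Tg (-0.64), and Mir431 at 5.23 in Tg and 5.82 in non-Tg (-0.59). The 1 higher member was Mir680-3, at 7.16 in Tg and 6.57 in non-Tg (0.59). Over the 67 members above a median, 22 ratios lay above 0, 43 below and 2 at 0, with a median of -0.11, beside 0.00 over the 12537 single-symbol probe sets. Among these members 9 had passed through the non-Tg array alone and 4 through the Tg array alone. Over the 54 above both medians, 18 ratios lay above 0 and 34 below, with a median of -0.08, again beside 0.00. Over all 298 members the median difference without a floor was -0.02, with 57.0% of them below 0, beside a median of -0.01 and 51.5% below 0 over the 21789 single-symbol probe sets. Identical values on both arrays were listed for 24 of the 298 members, beside 2.48% of the 21789. Among those above a median they were listed for 2 of 67, Mir25 at 5.80 and Mir34b at 5.61, beside 0.981% of the 12537.

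The 10 members with the highest mean level lay close together on both arrays. A level also depends on how well the probes of a set bind, so their order is no order of abundance. Mir598 was at 9.22 in Tg and 9.13 in non-Tg, and Mir692-1 at 8.21 in Tg and 8.74 in non-Tg. Mir181d was at 8.28 in Tg and 8.14 in non-Tg, and Mir346 at 7.71 in Tg and 7.90 in non-Tg. Of these only Mir692-1 differed by more than 0.5. The probe sets of Mir692-2 and Mir692-3 are also annotated to the gene Ftl1. They ran from 7.66 to 9.36 in Tg and from 7.45 to 9.42 in non-Tg. Whether the probe set of Mir692-1 reads RNA of that gene was not tested. Mir320 was at 7.54 in Tg and 7.42 in non-Tg, Mir383 at 7.41 and 7.42, and Mir328 at 7.45 and 7.26. Mir483, which lies within the growth factor gene Igf2, was at 7.28 in Tg and 7.33 in non-Tg, and Igf2 itself at 5.82 in Tg and 5.65 in non-Tg. Mir92b was at 7.14 in Tg and 7.38 in non-Tg. Mir375, the microRNA of pancreatic islets, was at 7.11 in Tg and 7.36 in non-Tg.

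The level of a member went with the base composition of its hairpin. Over the 260 probe sets with a hairpin sequence, level and share of G and C correlated with a Spearman rho of 0.800 on the Tg array and 0.785 on the non-Tg array (Pearson r 0.699 and 0.703). This is a correlation across probe sets, which share an array and its amplification and are not independent replicates. Hairpins under 40% G and C had 0 of 36 members above the median of an array, and those from 40% to 45% had 1 of 60. The count was 5 of 55 from 45% to 50%, 9 of 56 from 50% to 55%, and 13 of 27 from 55% to 60%. At 60% and over it was 23 of 26. Members above a median had a median of 58.8% G and C, and the others 45.5%. The hairpin length was only weakly related to level (rho 0.180 in Tg and 0.179 in non-Tg). Whether the base composition sets the level through the probes was not tested, since probe sequences were not used here.

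**Figure D2:**
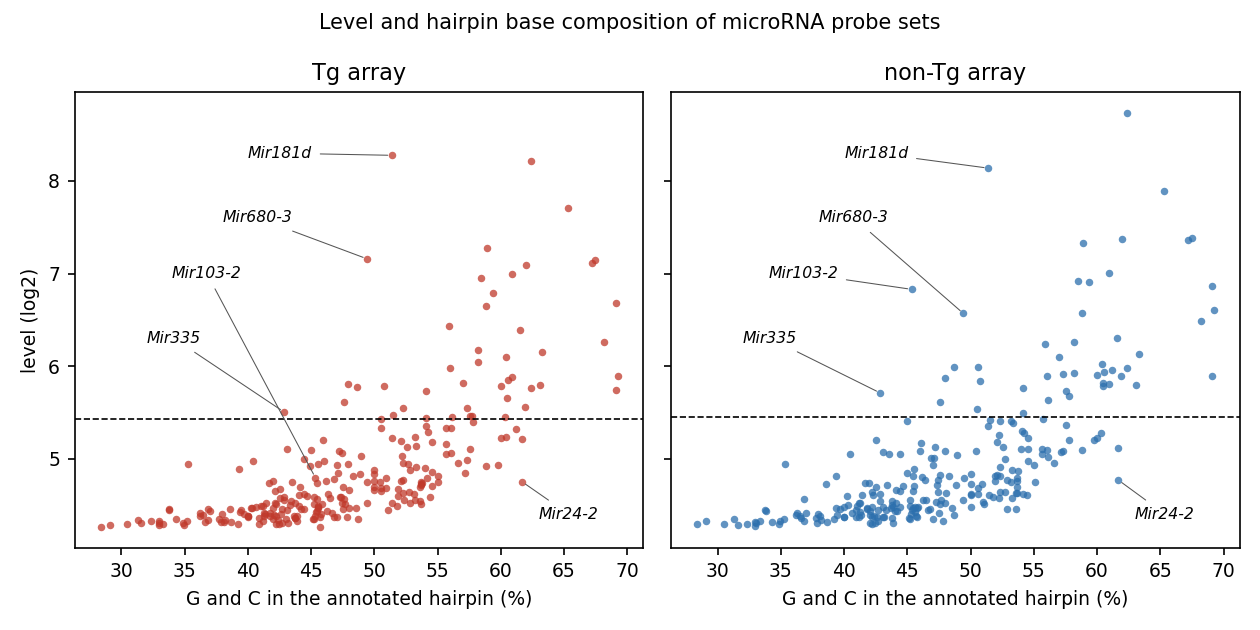
Level (log2) against the percentage of G and C in the annotated hairpin for 260 microRNA probe sets, on the Tg array (left, red) and the non-Tg array (right, blue); dashed lines mark the array medians. Levels were higher in hairpins richer in G and C on both arrays, and Mir181d, Mir680-3, Mir335 and Mir24-2 are named as departures from this; Mir103-2 departs on the non-Tg array.

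The relation was found in each subset examined. A list was made by name for the imprinted Dlk1-Dio3 cluster, whose microRNAs come from neighbouring transcripts of chromosome 12. It held Mir342, which lies within Evl, and left out Mir341, which lies within Rian with the listed Mir370. Whether each of the other listed members, Mir345 among them, lies within the cluster was not checked. Among members of this list rho was 0.832 in Tg and 0.835 in non-Tg (n = 40). For chromosome X it was 0.825 in Tg and 0.865 in non-Tg (n = 38). Members without an annotated same-strand host gave 0.846 in Tg and 0.849 in non-Tg (n = 136), and those with one 0.725 in Tg and 0.688 in non-Tg (n = 124). For the difference between the arrays (Tg minus non-Tg, no floor), rho with base composition was -0.164 over all 260. It was -0.332 without a host, -0.318 in the Dlk1-Dio3 list, -0.240 on chromosome X and 0.033 with a host.

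At the ends of the scale, Mir190a with 28.4% G and C was at 4.26 in Tg and 4.29 in non-Tg, and Mir376c with 29.1% at 4.29 in Tg and 4.33 in non-Tg. Mir210, the microRNA induced by hypoxia, with 69.1% was at 6.69 in Tg and 6.86 in non-Tg. Below 50% G and C, 6 members exceeded a median. They were Mir103-2 (45.3%), Mir335 (42.9%), Mir34b (47.6%), Mir129-1 (47.9%), Mir679 (48.6%) and Mir680-3 (49.4%). Mir335, which lies within the imprinted gene Mest, was at 5.50 in Tg and 5.71 in non-Tg, and Mest itself at 6.71 in Tg and 6.75 in non-Tg. In the other direction, Mir24-2 with 61.7% G and C was under the floor on both arrays, at 4.75 in Tg and 4.77 in non-Tg. Mir181d with 51.4% was bright for its base composition on both arrays, and Mir103-2 in non-Tg only.

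Where a host gene was measured, detection differed little with its level. Of the 260 members, 124 lay within the span of an annotated gene on the same strand, and for 90 such a host was measured, 71 distinct hosts in all. Where the host exceeded the median of an array, 15 of 64 members did too (23.4%). Where it did not, 5 of 26 did (19.2%), and among the 136 members with no such host annotated 31 did (22.8%). With a host above the median, 30 of the 64 members were under the floor on both arrays.

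Mir7-1 was at 4.74 on both arrays within Hnrnpk, an RNA-binding protein gene at 11.30 in Tg and 11.15 in non-Tg. Mir340 was at 4.35 in Tg and 4.36 in non-Tg within Rnf130, at 9.92 in Tg and 9.94 in non-Tg. The converse also occurred: Mir681 was at 5.89 in Tg and 5.80 in non-Tg within Cdkl1, at 4.55 in Tg and 4.53 in non-Tg. Mir341 was at 6.79 in Tg and 6.91 in non-Tg within the imprinted noncoding gene Rian, at 4.65 in Tg and 4.58 in non-Tg. Of the 64 pairs with a host above a median, 0 hosts were 2-fold apart, beside 1.36% of single-symbol probe sets above a median. A host of several members was counted there once per member. The host ratios ran from -0.49 for Egfl7 to 0.83 for Gpc3. In the 15 pairs where host and member both exceeded a median, 9 had ratios of the same sign.

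**Figure D3:**
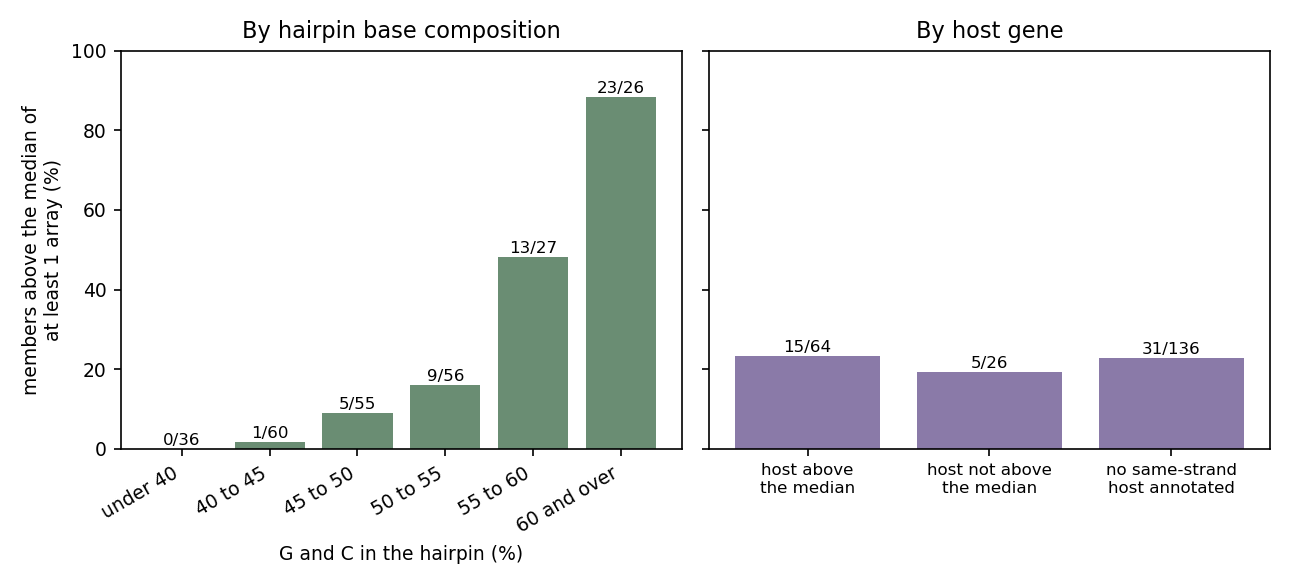
Share of microRNA probe sets above the median of at least 1 array, in percent, by hairpin base composition (left) and by the level of the same-strand host gene (right); numbers over bars give members above a median and members in the class. The share runs from 0 of 36 to 23 of 26 with base composition, and from 19.2% to 23.4% over the 3 host classes shown. Members whose annotated host was not measured are left out on the right, and all of them exceeded neither median.

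Neighbours in a cluster often differed in level. With neighbours on the same strand within 10 kb joined, 133 member probe sets fell into 41 clusters. The 3 probe sets of the single gene Mir713 were counted there as a cluster. In 26 clusters, that of Mir713 among them, 0 members exceeded a median, in 2 all did, and in 13 some did and some did not. The miR-25 cluster within the replication gene Mcm7 held Mir25 at 5.80 on both arrays. Its neighbour Mir93 was at 5.06 in Tg and 5.11 in non-Tg, and Mir106b at 4.99 in Tg and 5.08 in non-Tg. Their hairpins had 63.1%, 55.7% and 57.3% G and C in that order. Mcm7 was at 6.12 in Tg and 6.32 in non-Tg. The difference between the arrays could also vary within a cluster. Mir132, which shares its primary transcript and seed with Mir212, was at 5.11 in Tg and 5.36 in non-Tg (-0.26), beside -0.72 for Mir212. Mir449a had -0.66, and its neighbour Mir449c, at 4.96 in Tg and 4.91 in non-Tg, had 0.05. Their host Cdc20b was at 5.35 in Tg and 5.37 in non-Tg. In the cluster of Mirlet7e and Mir125a, where both exceeded the median of at least 1 array, the ratios were -0.21 and 0.17 in that order.

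The mature sequences of the matched members held 373 seeds, of which 64 were shared by at least 2 members. For 44 of these, 0 members exceeded a median, for 18 some did and some did not, and for 2 all did. Mir194-1 and Mir194-2, which make the same mature microRNA from 2 loci, were a pair in which both did. Mir194-1 was at 5.79 in Tg and 5.83 in non-Tg, and Mir194-2 at 5.65 in Tg and 5.78 in non-Tg. Mir680-2 was at 7.00 on both arrays, while Mir680-3 had the ratio of 0.59 given above and Mir680-1 was below the median at 5.39 in Tg and 5.20 in non-Tg. The seed of miR-34 was found for 4 members in the sequences used, which need not be all that carry it. Of these, Mir34b was at 5.61 on both arrays beside Mir449a, and Mir34a was under the floor on both. Mir34c, listed with another seed that it shares with Mir34b, was under the floor at 4.47 in Tg and 4.60 in non-Tg. Hoatz, the host of Mir34b, was also under it, at 4.55 in Tg and 4.51 in non-Tg.

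Of 13 measured lymphoid and myeloid members, 3 exceeded a median, a share near the 22.5% of all microRNA members, and 0 were 2-fold apart, with a median ratio of -0.04. These were Mir181d, Mir181c at 6.67 in Tg and 6.86 in non-Tg, and Mir150, a microRNA of mature lymphocytes, at 5.30 in Tg and 5.47 in non-Tg. The 4 other miR-181 loci measured lay below the median on both arrays. Mir181a-1 was the 1 of them with a value under the floor on an array, at 4.58 in Tg and 5.20 in non-Tg. Mir142, a marker of blood cells, was under the floor at 4.65 in Tg and 4.64 in non-Tg. Mir155, induced in activated immune cells, was at 5.10 in Tg and 5.08 in non-Tg. Of the 13 members measured in the miR-17 clusters, which support lymphocyte growth, Mir25 exceeded a median and 10 were below the floor on each array.

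Epithelial microRNAs were mostly dim, as were the microRNA members in general. Over all members 22.5% exceeded a median and 163 of 298 were below the floor on both arrays. The counts of the families below stand beside these shares. Of 16 epithelial members measured, 2 exceeded a median, Mir449a and Mir34b, and 11 stayed below the floor on each array. Mir205, a microRNA of stratified and thymic epithelium, was under the floor on both arrays, at 4.76 in Tg and 4.48 in non-Tg. Of the miR-200 family, which maintains the epithelial state, Mir200a was at 5.03 in Tg and 5.25 in non-Tg. Mir200c was under the floor on both arrays, at 4.75 in Tg and 4.74 in non-Tg. Mir29a was also under the floor, at 4.32 on both arrays. Of the 8 measured miR-29 and miR-30 genes, Mir30d exceeded the medians, at 6.75 in Tg and 7.20 in non-Tg (ratio -0.45). Of 10 let-7 genes, the family that restrains growth, 2 exceeded a median. Mirlet7e was at 5.76 in Tg and 5.98 in non-Tg, and Mirlet7i at 5.73 in Tg and 5.77 in non-Tg. Of 6 genes of the miR-15 and miR-16 family, Mir497 exceeded a median, at 5.56 in Tg and 5.90 in non-Tg.

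**Figure D4:**
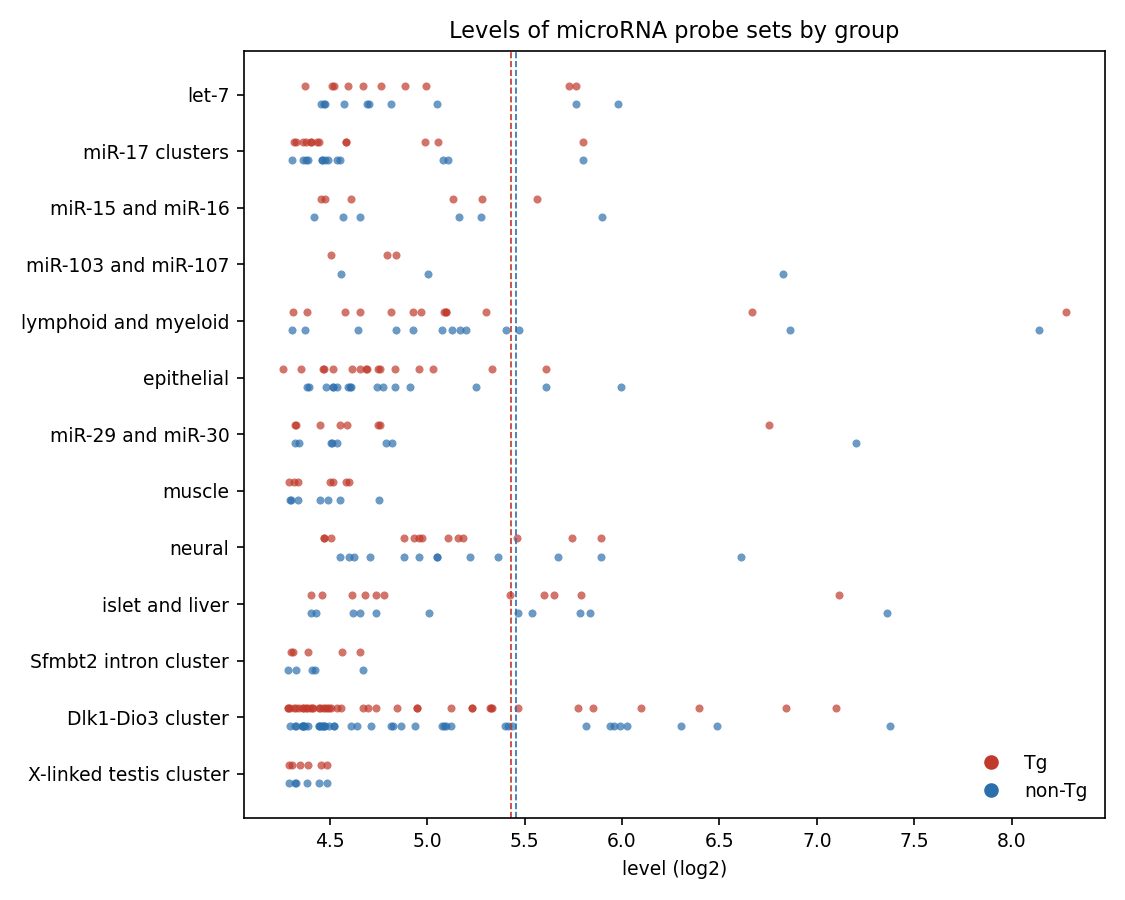
Levels (log2) of microRNA probe sets in 13 groups; each point is 1 probe set, with Tg in red above non-Tg in blue, and dashed lines mark the array medians. In each group most or all points lie left of the medians, and the point of the miR-103 and miR-107 group at 6.83 is Mir103-2 in non-Tg.

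Tissue-restricted microRNAs, of interest because Aire drives genes of peripheral tissues in the medulla, were not 2-fold higher in Tg in any group measured. Over all microRNA members, 22.5% exceeded a median and 163 of 298 were below the floor on both arrays. All 7 muscle members stayed below the floor on each array, among them Mir206 at 4.29 in Tg and 4.30 in non-Tg. Of 13 neural members 3 exceeded a median: Mir212, Mir219a-1 at 5.74 in Tg and 5.89 in non-Tg, and Mir138-2 at 5.46 in Tg and 5.67 in non-Tg. All 3 were lower in Tg, each by less than 2-fold. The share of neural members above a median was near that 22.5%. Of 11 islet and liver members 5 exceeded a median, a larger share. Among them, Mir375 had a ratio of -0.25, Mir194-1 -0.05 and Mir194-2 -0.13. Mir122, the main microRNA of hepatocytes, was at 5.60 in Tg and 5.46 in non-Tg, and Mir7-2 at 5.42 in Tg and 5.54 in non-Tg. Of 41 measured members of the Dlk1-Dio3 list 9 exceeded a median, and 0 were 2-fold apart. Among the 9 were Mir342 within Evl and Mir345, whose place in the cluster was not checked. Without a floor 27 of the 41 differences lay below 0, beside 57.0% over all microRNA members. However, 22 of the 41 were under the floor on both arrays, and the median ratio was 0. Mir667 was at 7.10 in Tg and 7.38 in non-Tg, and Mir666 at 6.84 in Tg and 6.49 in non-Tg. The 6 members of the X-linked testis cluster and the 5 listed by name for the Sfmbt2 intron cluster were all below the floor on each array. Of the latter, Mir297-1 maps to chromosome 7, so it is not part of that intron.

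Most genes that make and use microRNAs exceeded the median. Of 36 listed genes 34 were measured and 31 exceeded a median, beside 57.5% of single-symbol probe sets. Of these 31, 0 were 2-fold apart in either direction, beside 1.36% of the single-symbol probe sets above a median. Of the 34 differences 22 lay above 0 and 12 below, and the median ratio was 0.10. Drosha, the nuclear hairpin-releasing enzyme, was at 7.11 in Tg and 6.22 in non-Tg (ratio 0.89, 1.86-fold). Its partner Dgcr8 was at 6.85 in Tg and 7.40 in non-Tg (-0.55), so the 2 subunits differed in opposite directions. Dicer1 was at 7.69 in Tg and 7.13 in non-Tg (0.56), and Parn, a poly(A)-removing nuclease, at 7.26 in Tg and 6.63 in non-Tg (0.63). Ncbp1, the large subunit of the nuclear cap-binding complex, was at 6.57 in Tg and 7.10 in non-Tg (-0.53). Ago2, the Argonaute that cleaves its targets, has 2 probe sets that disagreed in direction, with differences of -0.20 and 0.29. Lin28b, which blocks let-7 processing, was at 4.60 in Tg and 4.66 in non-Tg, under the floor.

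**Figure D5:**
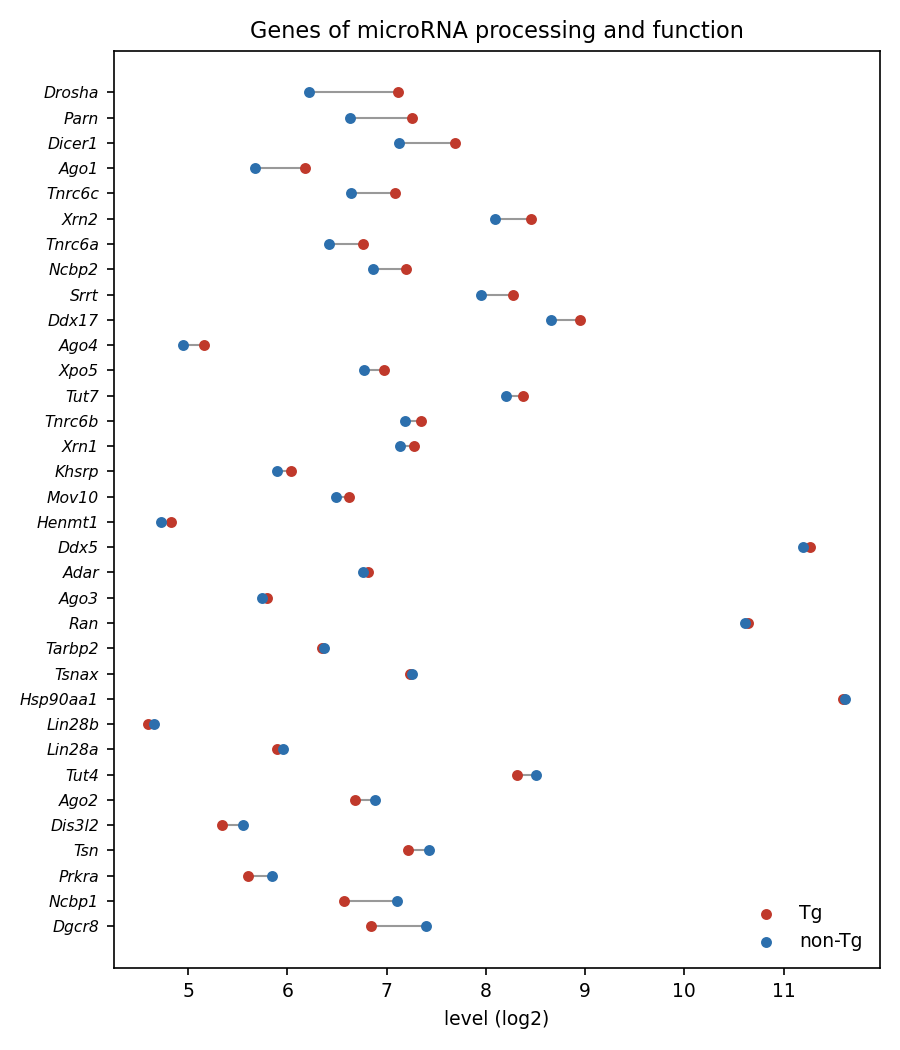
Levels (log2) of 34 genes of microRNA processing and function in Tg (red) and non-Tg (blue), 1 array each, with a line joining the 2 values; genes are ordered from the highest difference (Tg minus non-Tg) at the top to the lowest. Drosha at the top and Dgcr8 at the bottom differ by 0.89 and -0.55, and 0 genes reach 2-fold.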

How the data were processed

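RNA of cTECs was hybridised to 1 array per genotype. Per the labels' protocols, total RNA came from an RNeasy Mini kit, 400 pg of it was amplified (Ovation One-Direct), and 5.5 µg of the resulting cDNA carried biotin. The deposited table holds 1 log2 value per probe set and array, the scale being inferred from its range. The authors' normalization, not given in the sources used here, could shift both levels and ratios. The table held 0 columns of other samples.

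Symbols came from the platform annotation in GEO, and only probe sets with a single symbol named a gene. For ratios, a value below the 25th percentile over both arrays was set to that percentile, and a probe set passed if it exceeded the 50th percentile of its array on at least 1 array. A ratio of 2-fold among those counted as a difference, with no test. For genes with several probe sets that are not microRNAs, the one with the highest mean was taken. Hosts were genes whose RefSeq span held the hairpin on the same strand, with the strand taken from RefSeq promoters.

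The members and lists were chosen with earlier results of these data known. Named are members 2-fold apart, the 10 with the highest mean, the 2 brightest passing members of each group, their hosts, and in the processing list the 2 highest and the 2 lowest ratios. Others were named after their values were seen. The number of arrays limits the precision. The code that counts 2-fold differences was checked on simulated arrays with built-in folds, which says nothing of the error of these arrays. Python 3.11.15, numpy 2.4.6, pandas 2.3.3, scipy 1.17.1 and matplotlib 3.10.9 were used.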

Additional observations from a re-analysis of the deposited data

How the results depend on the processing

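No paired analysis was possible because each group has 1 array, and for the same reason no array could be left out. Of 128 values recomputed under 10 settings, 116 stayed near the main value. This meant counts within 1.5 times, and ratios on the same side of 2-fold and moved by at most 1.5-fold. Medians had to stay within a small set margin. With the upper quartile in place of the median, 23 members were above the line in Tg, 25 in non-Tg, 26 on at least 1 array and 22 on both, and 1 was 2-fold lower in Tg. With the floor at the 50th percentile 1 member was 2-fold lower in Tg, since Mir103-2 had a ratio of -1.39 and Mir505 one of -0.63; a higher floor shortens ratios by construction. With a fold of 1.5, 1 member was higher and 6 were lower in Tg. At that fold 2 of the 31 processing genes above a median and 5 of the 71 measured hosts were apart. Over all single-symbol probe sets above a median the share was 8.13%. Quantile normalization, centring each array on its median, leaving out the floor or the filter, and taking 1 probe set per gene left the counts of members 2-fold apart at 0 higher and 2 lower. Detection calls were not used here, so the array median stood in for them. Values near the lower bound compress ratios towards 0.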

Other observations

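Probe sets annotated to several genes, which entered no count above, included 61 with a microRNA symbol. Of these 16 exceeded the median of at least 1 array and 0 were 2-fold apart, with differences from -0.76 to 0.29 (Tg minus non-Tg). Of the 32 whose symbols all start with Mir, 1 exceeded a median, and these include some that carry a host gene such as Mir22hg. The 1 was that of Mir22 with its host gene Mir22hg, at 5.80 in Tg and 6.27 in non-Tg. Of the 29 that also carry a symbol of another kind, 15 did.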
